A study of Sus scrofa with 20 samples.

Results

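The cytosolic ribosomal proteins are the protein subunits of the ribosome that translates mRNA in the cytoplasm. Their transcripts were followed in caecal mucosa of pigs that differed in residual feed intake (RFI), which is the feed eaten beyond what body weight, gain and body composition predict. Members were taken by name: every probeset whose platform gene symbol is RPL or RPS with a number, RPLP0, RPLP1, RPLP2 or RPSA, and for each gene the probeset with the highest mean over all pigs. The annotation of the array holds 62 such symbols with 204 probesets, of which 58 symbols with 134 probesets had values, out of 10568 named genes and 25092 probesets in all. RPL11, RPL29, RPS9 and RPS19 carried no value. Of a list of 77 standard ribosomal protein genes, 53 were measured, 21 of 31 of the small subunit and 32 of 46 of the large subunit. The other 5 symbols were RPL10L, RPL22L1, RPL26L1 and RPS27L, which name paralogues of standard subunits, and RPS4, which the RefSeq gene table gives as a synonym of RPS4X.

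The animals were 20 pigs of a Large White x Landrace cross, 10 of high feed efficiency (low RFI) and 10 of low feed efficiency (high RFI), with 1 array per pig. Each of 5 sows gave 4 pigs, namely a male and a female of either efficiency class. Per the methods of the study, litters were kept whole in a pen with free access to feed, the most divergent littermates of each sex were chosen, and the pigs were slaughtered at about the same age. Sow therefore stands for mother and pen together, the efficiency class is a ranking within litter and sex and not a treatment, and the mucosa was scraped from the tip of the washed caecum. Values are log2 signals after robust multichip averaging (RMA), so that a difference of 1 is a factor of 2.

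Each ribosome carries 1 copy of nearly every ribosomal protein, and surplus subunits that are not built into a ribosome are degraded. The mRNAs are among the most abundant of a cell, and in vertebrates most begin with a run of pyrimidines (the terminal oligopyrimidine or TOP motif) through which the mTOR kinase and the RNA-binding protein LARP1 adjust their translation together. Subunits of the P stalk (RPLP0, RPLP1, RPLP2 and RPL12) recruit the GTPases of elongation. RPL5, RPL11 and RPL23 can bind MDM2 and so restrain the breakdown of p53, and loss of 1 copy of several ribosomal protein genes causes Diamond-Blackfan anaemia in humans. In the gut, the dividing cells of the crypts are known for a high rate of ribosome production.

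Markers of the labelled tissue were bright. Of 13 genes of intestinal epithelium, 10 were measured, with mean levels between 8.44 for CLDN3 and 12.64 for KRT19. Arrays correlated with each other between 0.942 and 0.974 over all probesets, and the upper quartile of an array's values lay between 6.25 and 6.30. Probesets of other cell types ran from 3.24 to 5.65 for erythrocytes (4 of 6 markers measured), from 3.05 to 7.64 for smooth muscle (7 of 8, with TAGLN highest), from 6.12 to 7.94 for B cells (7 of 10), from 5.11 to 8.50 for T and natural killer cells (10 of 13) and from 5.17 to 9.74 for fibroblasts (8 of 9). Macrophage and dendritic cell markers (6 of 10) ran from 5.33 to 10.23 and plasma cell markers (6 of 9) from 6.94 to 9.13. The highest of these lay within the range of the epithelial markers. Mature colonocyte markers (3 of 9) ran from 4.86 to 9.35. Since the mucosa is a mixture, fewer cells of a type and less RNA per cell cannot be told apart.

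The brightest probesets of the ribosomal proteins were bright as a group. Mean levels ran from 2.02 to 13.36 with a median of 6.86, while the brightest probesets of all 10568 named genes had a median of 5.43. Of the 58 genes, 38 lay at or above 6.24, the upper quartile of all probeset means, which is 65.5% of them against 33.9% of all named genes, and 13 were at or above 10. Both shares take the brightest probeset of a gene, a choice that favours genes with more probesets. Of the 76 other probesets of the members, 6 (7.89%) reached that level, against 25% of all probesets. The brightest probesets were those of RPS12, a small subunit protein (13.36), RPS3 (12.24), which lines the mRNA entry of the small subunit, RPL23 (11.85), RPL10A (11.35) and RPL39 (11.17), a small protein of the exit tunnel. The dimmest were RPL36A (2.02), RPS4 (2.15), RPS4X (2.66), RPS20 (2.84) and RPL35A (2.85), although these too are subunits of every ribosome. The brightness of a probeset depends on its probes as well as on its transcript, so the order of these levels is not an order of abundance. No member lay under the 1.62 that served as the lower bound of the tests, but RPL36A and RPL35A lay under it in 2 pigs each and RPL10 in 5 pigs.

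**Figure D1:**
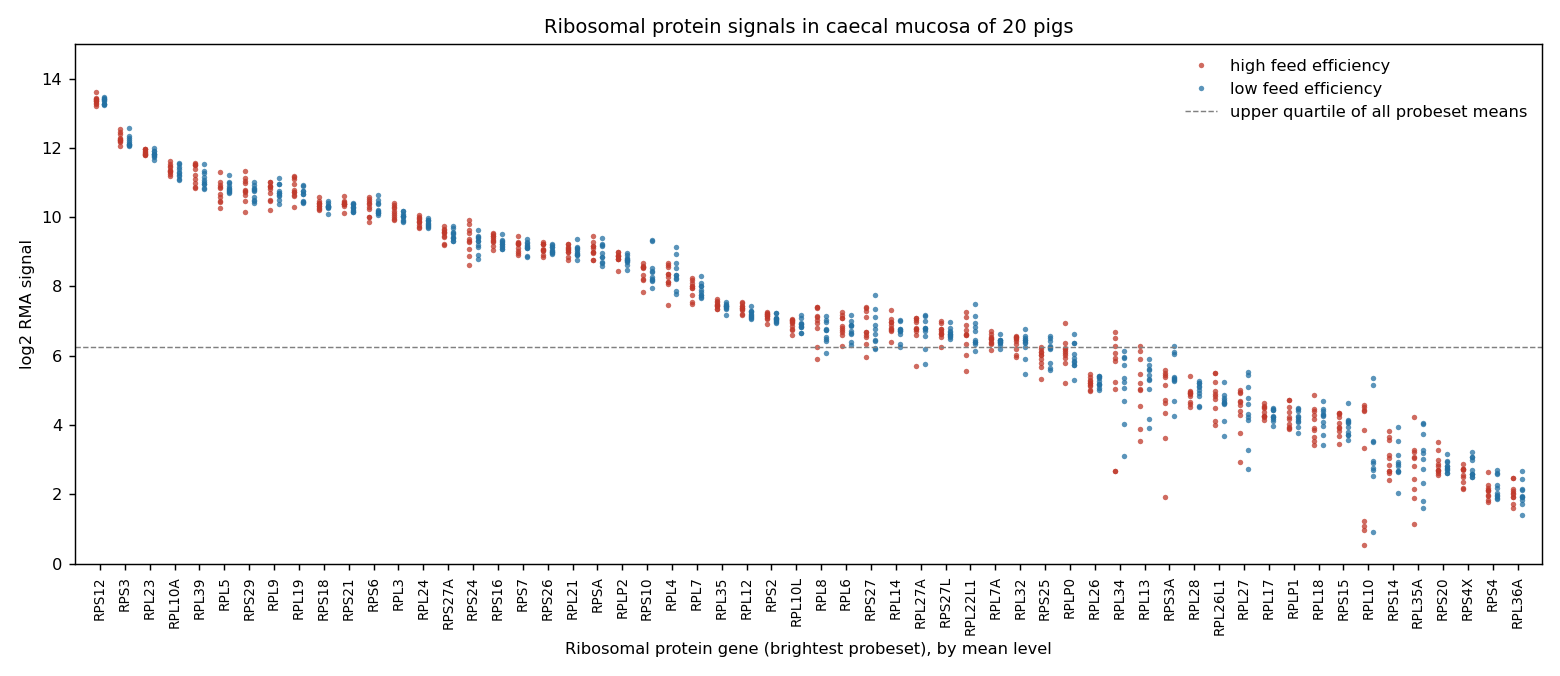
Log2 RMA signal (y axis) of the brightest probeset of each of the 58 ribosomal protein genes (x axis, by mean level), 1 point per pig, with high feed efficiency left and low feed efficiency right at each gene. The dashed line is the upper quartile of all probeset means (6.24), and the points of both groups overlap at every gene.

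Bright members varied little between pigs and dim members varied more. The standard deviation over 20 pigs had a median of 0.169 in the 38 genes at or above the upper quartile, against 0.243 in all named genes above that level. These 2 sets were not matched for level, since the median of the mean levels was 9.06 in the 38 members and 7.27 in the named genes. In the 20 members below it the median was 0.368, against 0.300 in all named genes below it. The most even probesets were RPL23 with an SD of 0.0861, RPL35 with 0.0983, RPS12 with 0.0983 and RPS2 with 0.104. RPL23, for example, lay between 11.78 and 11.97 in high and between 11.66 and 11.98 in low feed efficiency pigs.

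The most uneven were RPL10 (SD 1.49), RPL34 (1.21), RPS3A (0.977) and RPL35A (0.849). RPL10, which sits near the active site of the large subunit, had a level of 0.54, 0.97, 1.07 and 1.22 in 4 pigs of high and 0.90 in 1 pig of low feed efficiency, while all other pigs lay between 2.51 and 5.36. Pigs with such a low value came from the litters of sows 1406, 1411 and 1417, and in each of these litters another pig lay between 4.44 and 5.36. RPL34 lay at 2.67 and 2.68 in both high feed efficiency pigs of sow 1410 and at 3.10 in 1 low feed efficiency male of sow 1417, and between 4.03 and 6.68 elsewhere. RPL10, RPL34 and RPL35A exceeded the bound on spread in both efficiency groups and were therefore not tested for feed efficiency.

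Genes with several probesets showed how far a level depends on the probes chosen. For 27 of the 58 genes more than 1 probeset had values, and the other 76 probesets were dim, with a median level of 3.41. The gap from the brightest to the next probeset had a median of 3.38. RPL19 alone had 28 probesets with mean levels between 1.39 and 10.73, and no other member had more than 8. Other probesets of a gene correlated with its brightest at a median of 0.0692 over the pigs, and 8 of 76 correlated above 0.5, such as a second RPS6 probeset at 0.80 and a second RPL5 probeset at 0.68. Values below are therefore those of 1 probeset per gene.

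Feed efficiency was the question of the study, and the ribosomal proteins of both groups overlapped for all 58 genes. The share of all probesets that overlapped was not counted, so this overlap is not read as a trait of the members. Over all probesets, 0 of 23140 passed an adjusted p under 0.05 in limma, which is 0% called, and 0 of the 55 ribosomal proteins tested did. The count at an unadjusted p under 0.05 was 1036 of 23140 probesets, or 4.48%, and 1 of 55 members, or 1.82%. The smallest adjusted p among the members was 0.98. Beside this, 43 of the 55 members (78.2%) were on the high side in high feed efficiency pigs, against 51.1% of all probesets, with a median log2 difference of 0.05 against 0.00. That count carries no test, since members vary together over the same 20 pigs, and without the litter of sow 1417 it was 32 of 57, with a median of 0.02.

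The differences were also bounded. For 48 of the 55 members the 95% interval of the difference lay within 0.5 on the log2 scale on either side of 0, and the intervals reached 0.22 to either side at the median. The median size of a difference was 0.07 in the members and 0.09 over all probesets. Of the 38 members at or above the upper quartile of level, 34 were above 0, with a median of 0.05 and a range of -0.14 to 0.24, whereas 54.0% of all probesets at that level were. Of the 17 dimmer members tested, 9 were above 0, with a median of 0.01.

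**Figure D2:**
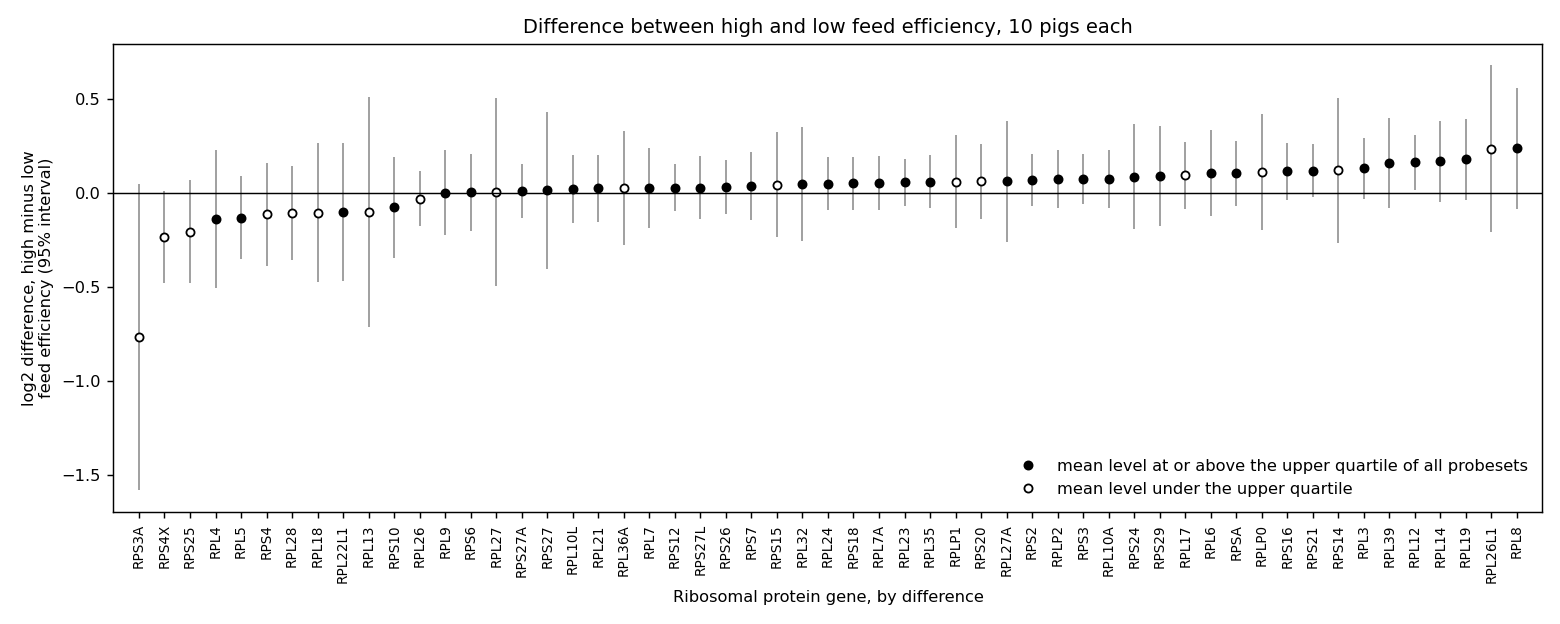
Log2 difference of high minus low feed efficiency (y axis, points) with its 95% interval (bars) for the 55 ribosomal protein genes tested (x axis, by difference), with sow in the model and 10 pigs per group. Filled points are genes at or above the upper quartile of level, and the interval lies above 0 for RPL12 only.

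On the high side, the gene with the smallest p was RPL12, the rRNA-binding base of the P stalk. It lay between 7.17 and 7.55 with a median of 7.38 in high feed efficiency pigs, and between 7.07 and 7.45 with a median of 7.20 in low feed efficiency pigs. The groups overlapped, and in 9 of 10 pairs of littermates of 1 sex the pig of high feed efficiency had the higher value. The log2 difference was 0.16 ± 0.07 (SE, n = 10 each), a factor of 1.12, with an unadjusted p of 0.032 and an adjusted p of 0.98 in limma. The value belongs to 1 probeset, and with the 3 probesets of RPL12 averaged the difference was 0.04 (p = 0.547 in limma). Without the litter of sow 1406 the unadjusted p was 0.129, and without that of sow 1417 it was 0.128. The gene lies on chromosome 1, from 267961398 to 267964881 of Sscrofa11.1.

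RPS21, a small subunit protein, averaged 10.39 ± 0.13 in high and 10.27 ± 0.10 in low feed efficiency pigs (SD, n = 10 each), a difference of 0.12 ± 0.07 (SE). RPL19 differed by 0.18 ± 0.10, RPL3, which lies close to the site of peptide bond formation, by 0.13 ± 0.08, RPL14 by 0.17 ± 0.10 and RPS16 by 0.12 ± 0.07. Their unadjusted p-values in limma ran from 0.096 to 0.130, and each was higher in 6 or 7 of 10 littermate pairs. For RPL19 the result rests on 1 probeset, as 11 of the other 22 probesets tested had the same sign. RPL8, singled out after its values were seen, was higher in high feed efficiency pigs in 9 of 10 pairs, with a difference of 0.24 ± 0.15 and a p of 0.138 in limma.

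On the low side stood RPS4X, encoded on the X chromosome, with a level of 2.15 to 2.86 and a median of 2.63 in high feed efficiency pigs and of 2.49 to 3.21 and a median of 2.65 in low feed efficiency pigs. The difference was -0.23 ± 0.12 (SE, p = 0.062 in limma) and 3 of 10 pairs higher in the pig of high feed efficiency, at a level not far above the bound of 1.62. RPS3A, a small subunit protein, had the widest difference of the members, -0.77 ± 0.39 (p = 0.063 in limma, adjusted p = 0.98). It lay between 1.92 and 5.57 with a median of 4.94 in high feed efficiency pigs, and between 4.25 and 6.28 with a median of 5.34 in low feed efficiency pigs. A single high feed efficiency male of sow 1411 held the value of 1.92, and the next higher pig of that group lay at 3.63. Without that pig the difference was -0.46, and without its litter -0.35, and with the probesets of RPS3A averaged it was -0.41. RPS25 differed by -0.21 ± 0.13, RPL5 by -0.13 ± 0.10, RPL28 by -0.11 ± 0.12 and RPS4 by -0.11 ± 0.13, none of which passed (p from 0.130 to 0.388 in limma).

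By role, all 4 proteins of the P stalk lay above 0, with a median of 0.09. Beside RPL12 these were RPLP0, the scaffold of the stalk (0.11 ± 0.15), RPLP1 (0.06 ± 0.12) and RPLP2 (0.07 ± 0.07). The MDM2 binding subunits measured were split, with RPL23 at 0.06 ± 0.06 and RPL5 at -0.13 ± 0.10. Of the 7 subunits around the exit tunnel measured of 10 listed, 5 lay above 0 (median 0.06), and all 3 measured of 4 at the mRNA entry and decoding site did (median 0.07). Of 18 Diamond-Blackfan anaemia genes, 12 were measured, 11 tested and 7 above 0 (median 0.01). The paralogues RPL26L1, RPS27L and RPL10L differed by 0.24 ± 0.21, 0.03 ± 0.08 and 0.02 ± 0.09, and RPL22L1 by -0.10 ± 0.17. In each of these groups 0 genes passed the adjusted test, and RPL12 alone had an unadjusted p under 0.05.

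Other parts of the translation apparatus did not pass either. Of 9 further TOP genes measured, 5 were above 0 (median 0.04), and EIF3F, EEF1D and EEF1B2 had the smallest p, with differences of 0.15 ± 0.08, 0.10 ± 0.08 and 0.08 ± 0.09. Of 21 initiation factors, 11 were above 0 (median 0.04), led by EIF3B (0.14 ± 0.08), EIF4A1 (0.13 ± 0.07) and EIF4A2 (-0.18 ± 0.11). Of 29 ribosome biogenesis genes tested, 18 were above 0 (median 0.07), with POLR1C, a subunit of RNA polymerases I and III, at 0.18 ± 0.08 (p = 0.040 in limma, adjusted p = 0.98), SBDS at -0.22 ± 0.12 and PES1 at 0.16 ± 0.09. Of 12 genes that control ribosomal protein synthesis, 7 were above 0 (median 0.01), and MDM2 (-0.27 ± 0.17), TSC1 (0.14 ± 0.13) and MYC (0.11 ± 0.10) came first. Of 50 mitochondrial ribosomal proteins tested, which belong to a separate ribosome, 34 were above 0 (median 0.05) and MRPS2 (0.18 ± 0.08), MRPL38 (0.21 ± 0.09) and MRPL36 (0.17 ± 0.09) had the smallest p. No gene of these 5 lists passed the adjusted test. In the same order, 0 of 9, 0 of 21, 1 of 29, 0 of 12 and 2 of 50 had an unadjusted p under 0.05, all on the high side. Of all probesets, 4.48% had such a p and 51.1% were above 0.

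Several marker lists leaned to the high side in the same comparison, where 51.1% of all probesets were above 0. Of their genes 0 passed the adjusted test in limma. At an unadjusted p under 0.05, which 4.48% of all probesets had, stood 4 of 6 macrophage and dendritic cell markers, 2 of 6 plasma cell markers, 2 of 10 T and natural killer cell markers, 1 of 8 fibroblast markers, 1 of 7 smooth muscle markers and 1 of 12 immediate early genes, all on the high side, and 1 of 7 B cell markers on the low side. All 6 macrophage and dendritic cell markers were above 0 (median 0.29), as were all 6 plasma cell markers (median 0.16), all 8 fibroblast markers (median 0.10), 9 of 10 T and natural killer cell markers (median 0.07) and 10 of 12 immediate early genes (median 0.10). Named after their values were seen, the genes of smallest p were NKG7 (0.33 ± 0.09, p = 0.0026 in limma) and GZMB (0.33 ± 0.12, p = 0.011), genes of cytotoxic cells, TYROBP (0.44 ± 0.16, p = 0.013), an adaptor of myeloid and natural killer cells, and COL1A1 (0.29 ± 0.11, p = 0.016), a collagen of fibroblasts.

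The mean level of the macrophage and dendritic cell markers ran from 6.91 to 7.58 in high and from 6.80 to 7.38 in low feed efficiency pigs, and that of the plasma cell markers from 7.80 to 8.15 in high and from 7.48 to 8.01 in low feed efficiency pigs. For T and natural killer cells it ran from 6.72 to 7.47 in high and from 6.50 to 7.43 in low, and for fibroblasts from 7.56 to 8.66 in high and from 7.87 to 8.43 in low feed efficiency pigs, so the groups overlapped for each list. Dividing cell markers (12 of 14 measured) had 5 of 12 above 0 with a median of -0.10, and 0 at an unadjusted p under 0.05. The part of these cells in the ribosomal protein values was not tested.

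The mean over all 58 members, each set to 0 at its own average, was 0.01 ± 0.08 in high and -0.01 ± 0.09 in low feed efficiency pigs (SD, n = 10 each). Over the 38 members at or above the upper quartile it was 0.03 ± 0.11 in high and -0.03 ± 0.09 in low feed efficiency pigs, and 7 of 10 littermate pairs had the higher value in the pig of high feed efficiency for either mean. Both groups spanned nearly the same range, from -0.13 to 0.14 and from -0.10 to 0.16 over all members.

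Sex and its interaction with feed efficiency were tested in the same way. Of 23837 probesets 0 passed for sex (0% called) and 1023, or 4.29%, had an unadjusted p under 0.05, while 0 of 58 ribosomal proteins had either. The 4 X-linked members of interest did not differ beyond their spread. Of these RPL39 alone was bright, and RPL10 and RPL36A lay under the bound of 1.62 in 5 and 2 pigs. In the dim probesets a sex difference could be missed. RPS4X, which escapes X inactivation in humans, averaged 2.71 ± 0.25 in males and 2.62 ± 0.32 in females (SD, n = 10 each). RPL39 averaged 11.16 ± 0.27 in males and 11.19 ± 0.28 in females, RPL36A 2.02 ± 0.31 in males and 2.03 ± 0.33 in females, and RPL10 3.39 ± 1.36 in males and 2.74 ± 1.62 in females. The smallest p-values belonged to RPS14 (0.35 higher in males, p = 0.059), RPS21 (0.10, p = 0.112) and RPL12 (0.11, p = 0.116), and on the side of females to RPL32 (-0.26, p = 0.068), RPL13 (-0.53, p = 0.072) and RPLP1 (-0.21, p = 0.084), all unadjusted and from limma. For the interaction, 0 of 23140 probesets passed (0% called), 950 had an unadjusted p under 0.05, or 4.11%, and 0 of 55 members did.

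For litter, the share of ribosomal proteins at an unadjusted p under 0.05 was close to that of the array. With sow in a moderated F test over 5 litters of 4 pigs, 30 of 23837 probesets passed an adjusted p under 0.05 (0.126%) and 3831, or 16.1%, had an unadjusted p under 0.05. Of the 58 members 0 passed and 9, or 15.5%, had an unadjusted p under 0.05, and the smallest adjusted p was 0.17. The median F was 1.34 in the members and 1.40 over all probesets.

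RPSA, the laminin receptor and a protein of the small subunit, had the largest F (5.57, p = 0.005, adjusted p = 0.17 in limma). In the order of high feed efficiency male and female and low feed efficiency male and female, the pigs of sow 1410 lay at 9.45, 9.10, 9.40 and 9.16 and those of sow 1411 at 9.29, 8.99, 9.19 and 9.22. The litter of sow 1406 lay at 8.99, 9.16, 8.97 and 8.84. In the litter of sow 1435 the values were 8.77, 8.78, 8.70 and 8.84, and in that of sow 1417 they were 9.17, 8.96, 8.69 and 8.59. No pig of sow 1435 reached the level of any pig of sows 1410 or 1411, and the litter of sow 1417 spanned most of the range.

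RPL27, a large subunit protein, averaged 3.38 ± 0.83 in the litter of sow 1406 against 4.40 ± 0.15 to 4.96 ± 0.34 in the other litters (SD, n = 4 each). Its F was 5.37, with a p of 0.006 in limma. In that litter 3 pigs lay at 2.92, 3.29 and 2.74 and the other at 4.58, and 1 pig of sow 1410 lay at 3.78. RPS10 was high in the same litter, at 8.94 ± 0.45 against 8.14 ± 0.12 to 8.43 ± 0.16 elsewhere, where the high feed efficiency pigs lay at 8.55 and 8.54 and the low feed efficiency pigs at 9.31 and 9.34. RPS3 stood at 12.47 ± 0.10 in the litter of sow 1411 against 12.12 ± 0.08 to 12.25 ± 0.12 in the others.

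RPS20 averaged 3.17 ± 0.28 in the litter of sow 1417 and at most 2.84 ± 0.23 in the others, and RPS27A, a ribosomal protein made as a fusion with ubiquitin, averaged 9.68 ± 0.08 there and 9.35 ± 0.12 in the litter of sow 1406. RPS14 averaged 2.44 ± 0.29 in the litter of sow 1435 and 3.36 ± 0.49 in that of sow 1406. RPL34 averaged 3.65 ± 1.23 in the litter of sow 1410 and 5.44 ± 1.60 to 5.72 ± 0.46 in the others. The F of these 4 lay between 3.22 and 3.51, with unadjusted p-values of 0.030 to 0.040 in limma, and the litter that stood out differed from gene to gene. Without the litter that stood out, 7 of the 8 genes with the largest F no longer had an unadjusted p under 0.05 in limma. Genes and litters were picked from these same values, so a smaller F without that litter is built in. The F was then 0.42 for RPS20 and 1.74 for RPS27A without sow 1417, 0.78 for RPS14 without sow 1435, 0.10 for RPL34 without sow 1410, 1.15 for RPL27 and 1.30 for RPS10 without sow 1406 and 0.58 for RPS3 without sow 1411, while RPSA kept 3.56 or more (unadjusted p of at most 0.044 in limma) whichever pig or litter was left out. With the pig number in the model, 5 of 58 members had an unadjusted p under 0.05, against 7.96% of all probesets, and the F of RPS27A was 0.67. RPLP0 was the ninth gene at an unadjusted p under 0.05 (F = 3.11, p = 0.045).

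**Figure D3:**
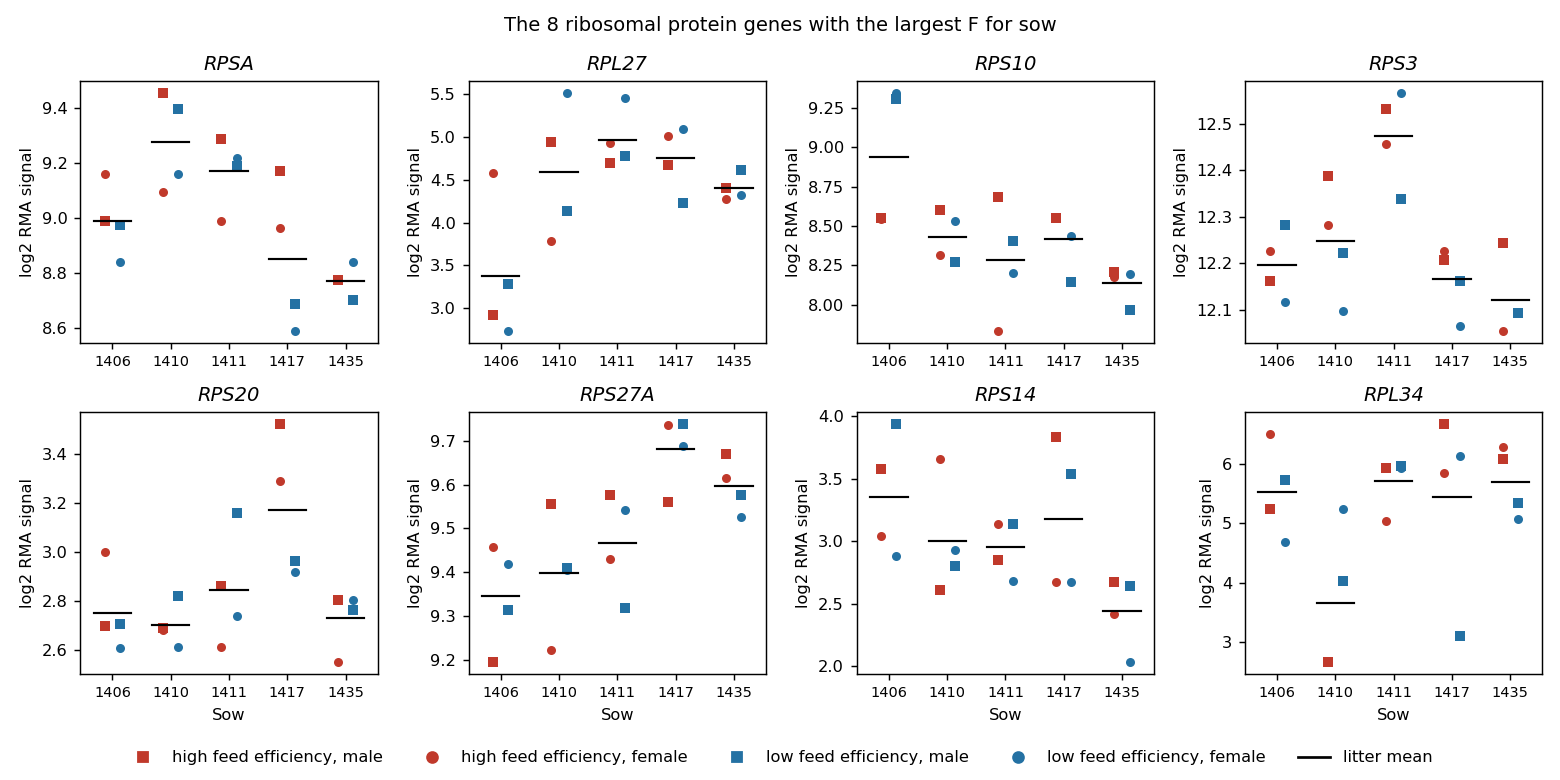
Log2 RMA signal (y axis) by sow (x axis) for the 8 ribosomal protein genes with the largest F for sow, with 1 symbol per pig (squares male, circles female, high feed efficiency left and low feed efficiency right) and the litter mean as a line. Litters that stand out differ between genes, such as sow 1406 for RPL27 and RPS10 and sow 1411 for RPS3.

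By litter, the mean over all members was -0.06 ± 0.05 in the litter of sow 1435, -0.03 ± 0.06 in that of sow 1406, 0.00 ± 0.07 in that of sow 1410, 0.04 ± 0.12 in that of sow 1411 and 0.04 ± 0.10 in that of sow 1417 (SD, n = 4 each). The litters at both ends lay 0.11 apart, more than the SD within 4 of the 5 litters. Over the 38 members at or above the upper quartile of level they lay 0.10 apart, more than the SD within 2 of the 5 litters. These ends were picked from 5 litter means of 4 pigs, and no test was made of either mean. In the F test for sow, 7 of 7 B cell markers measured had an unadjusted p under 0.05, against 16.1% of all probesets. Of them 1 passed the adjusted threshold, against 0.126% of all probesets. B cells are named here after all marker lists were seen. Among other lists, 3 of 6 plasma cell, 3 of 10 epithelial and 0 of 6 macrophage and dendritic cell markers had an unadjusted p under 0.05. The part of B cells in the member values was not tested.

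The labels number the pigs from 401 to 440, and these numbers ran with a pattern shared by the whole array. The first principal component of all probesets outside the members held 17.2% of the variance and correlated with the pig number at 0.87 over 20 pigs. What the number stands for is not given in the labels. Sows 1406, 1410 and 1411 had pigs numbered 401 to 420 and sows 1417 and 1435 pigs numbered 425 to 440, so number and sow overlap in part. With sow, feed efficiency and sex in the model, 18 of 23837 probesets passed (0.0755%) and 4265, or 17.9%, had an unadjusted p under 0.05. Of the 58 members 0 passed, and 8 (13.8%) had an unadjusted p under 0.05.

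Of these 8, 6 had a positive slope, as had 1980 of all probesets (8.31%), and 2 a negative slope, as had 2285 (9.59%), all 8 short of the adjusted threshold. RPL4, whose loop reaches into the exit tunnel, changed by 0.45 ± 0.13 for each 10 numbers (SE, p = 0.004, adjusted p = 0.13 in limma). RPS24 changed by 0.27 ± 0.11, RPL21 by 0.17 ± 0.07 and RPL7 by 0.21 ± 0.08, and RPS6, the substrate of the S6 kinases, by 0.19 ± 0.08. In the other direction stood RPS14 at -0.48 ± 0.11 (adjusted p = 0.088 in limma) and RPS15, a protein of the decoding site, at -0.37 ± 0.09 (adjusted p = 0.11), followed by RPL8 at -0.28 ± 0.14 and RPS18 at -0.11 ± 0.05. RPL4 was at 7.45 in the pig numbered 401 and at 9.13 in the pig numbered 435. With sow left out of the model, 11 of 58 members and 4786 of 23837 probesets passed.

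**Figure D4:**
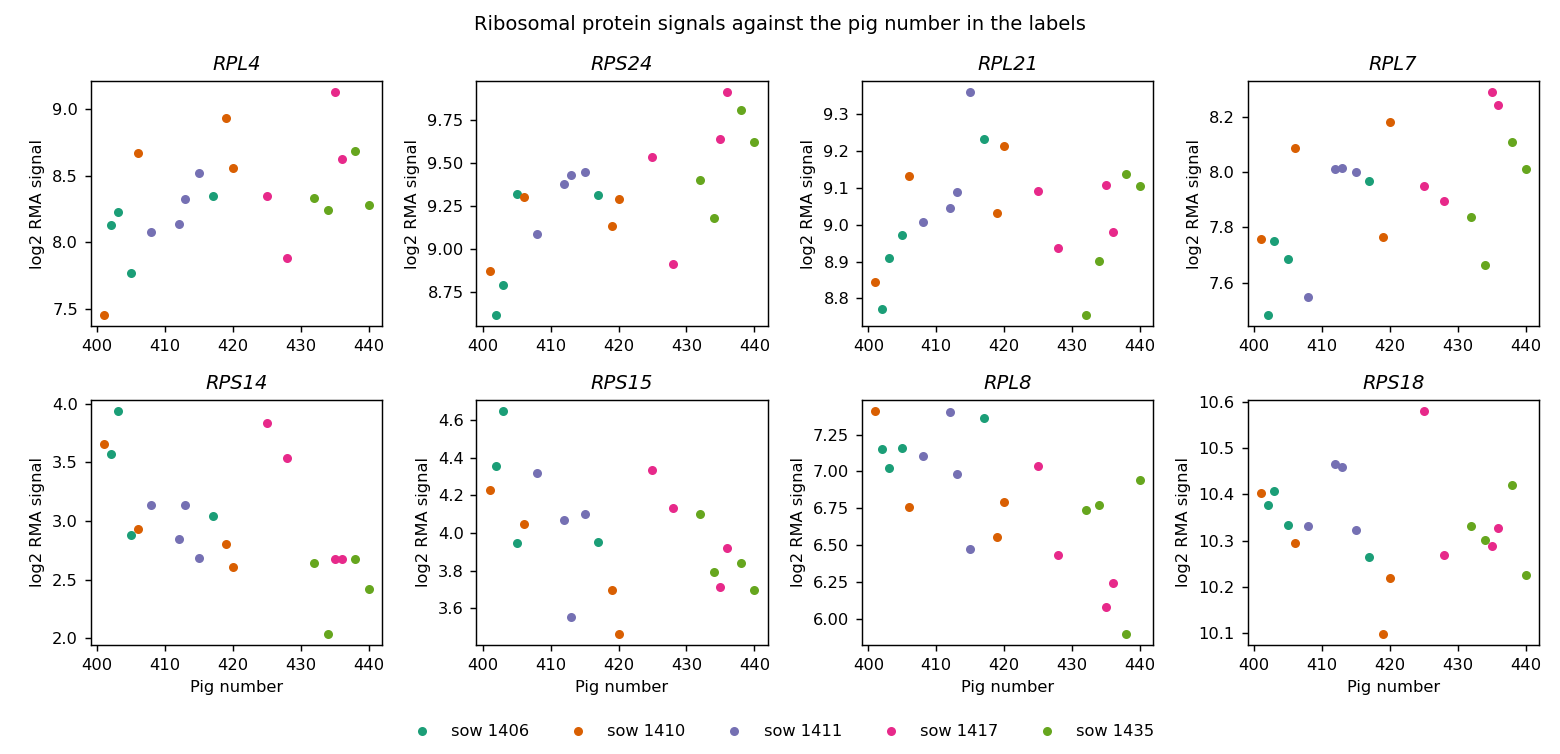
Log2 RMA signal (y axis) against the pig number in the labels (x axis), coloured by sow, for the 4 ribosomal protein genes of smallest p for either sign of the slope (upper row positive slope, lower row negative). RPL4 lay at 7.45 in the pig numbered 401 and at 9.13 in the pig numbered 435, and no gene shown passed the adjusted threshold.

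Correlations between ribosomal proteins across pigs lay above those between named genes in general, in bright probesets above all. The median correlation over the 1653 pairs of members was 0.12 ± 0.04 (jackknife SE over 20 pigs), with 14.5% of pairs above 0.5 and 35.0% below 0. Over all pairs of the other 10510 named genes the median was 0.02, with 5.22% above 0.5 and 48.1% below 0. In the 38 members at or above the upper quartile of level the median was 0.28 ± 0.06, with 26.6% of pairs above 0.5, against 0.02 and 9.80% in the other 3547 named genes at or above it. The 38 members were brighter, with a median mean level of 9.06 against 7.27 in all named genes at or above that quartile, so the comparison was not matched for level. In the 20 dimmer members it was 0.04, with 0.526% of pairs above 0.5. These correlations share the 20 arrays and their normalisation, and no test was made of them.

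The medians were not lower after centring on litter, or after regression on the pig number or on 1 array-wide component that held 17.2% of the variance. Centred on sow, the median over the members was 0.14, after regression on sow and pig number it was 0.16, and after regression on the first component of the other probesets it was 0.17. In the brighter members the same steps gave 0.33, 0.33 and 0.37. In the other named genes at that level the median was 0.02 centred on sow and 0.01 after regression on sow and pig number. No such median was taken after regression on the first component, so 0.17 and 0.37 stand without a comparison.

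Members nearest to the group were RPL10A, which correlated with the mean of the others at 0.72, RPL39 at 0.72, RPL23 at 0.72, RPS26 at 0.72, RPL19 at 0.70 and RPS29 at 0.69. The 20 members above 0.5 were spread over both subunits. The lowest were RPL10 at -0.52, RPS4 at -0.35, RPL36A at -0.32, RPS3A at -0.30, RPL13 at -0.23 and RPL14 at -0.20. Of these, RPL14 alone lay at or above the upper quartile of level, while 10 of the 58 members were below 0. The paralogue probesets did not run closely with their standard partners. Correlations were -0.28 for RPL26L1 and RPL26, 0.19 for RPS27L and RPS27 and -0.12 for RPL10L and RPL10. RPL26L1 and RPL26 were dim (4.71 and 5.23), and RPL10 (3.06) lay under the bound of 1.62 in 5 pigs, so these pairs say little. RPL22, the partner of RPL22L1, was not measured. RPL10L itself correlated with the mean of the others at 0.60. RPS4 and RPS4X, which the gene table treats as 1 gene, correlated at -0.12 with each other at levels of 2.15 and 2.66.

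The correlations were grouped with a tree, cut into 4 clusters after the map was seen. The larger 2 were a block of 25 genes with a median correlation of 0.44 and a block of 19 with 0.49. The median between them was 0.11. Because the tree was built on these same correlations, closer correlation within a block than between blocks follows from its making. The same holds for the place of the closest pairs. The first held RPS6, RPL7, RPL22L1, RPL6, RPL9, RPL5 and RPS24, with correlations such as 0.93 for RPL22L1 and RPS6 and 0.91 for RPL7 and RPS6. Of the 10 closest pairs of members 9 lay within this block, and the other joined RPL19 of the first block and RPL39 of the second (0.86). The second held the P stalk proteins, RPS16, RPS21, RPL3, RPL39, RPS26, RPL10A, RPS3 and RPSA. Both mixed small and large subunit proteins, 7 and 16 in the first and 8 and 10 in the second. Within another cluster of 12, with RPL8, RPL27A, RPS14 and RPS15, the median correlation was 0.17, and it was -0.22 with the first block. RPL5 and RPL8 were the most opposed pair of members at -0.77.

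The blocks differed in how they ran with the pig number. Correlations with it were above 0 for 23 of 25 genes of the first block (median 0.41, from RPS27A at 0.84 downwards), and below 0 for all 19 of the second (median -0.26) and all 12 of the cluster around RPL8 (median -0.43, down to RPL8 at -0.67). Within litters the mean of the first block correlated with the number at 0.48, that of the second at -0.10 and that of the cluster around RPL8 at -0.72. In the same order, these means correlated with the first component of the probesets outside the members at 0.65, -0.48 and -0.80. The blocks were cut from correlations that hold this array-wide pattern, so their split by number follows in part from their making. Correlations with the pig number beyond 0.5 in either direction were found in 24.1% of the members and 31.1% of the other named genes. RPS3A and RPS4 formed the last cluster.

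Differences between high and low feed efficiency lay above 0 for 17 of 23 genes tested in the first block (median 0.02), for 19 of 19 in the second (median 0.07), for 7 of 11 in the cluster around RPL8 (median 0.04) and for 0 of 2 in the cluster of RPS3A and RPS4 (median -0.44). The mean of the second block was 0.04 ± 0.13 in high and -0.04 ± 0.09 in low feed efficiency pigs (SD, n = 10 each). Since genes of a block vary together, the 19 are not separate observations, and of them RPL12 alone had an unadjusted p under 0.05.

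**Figure D5:**
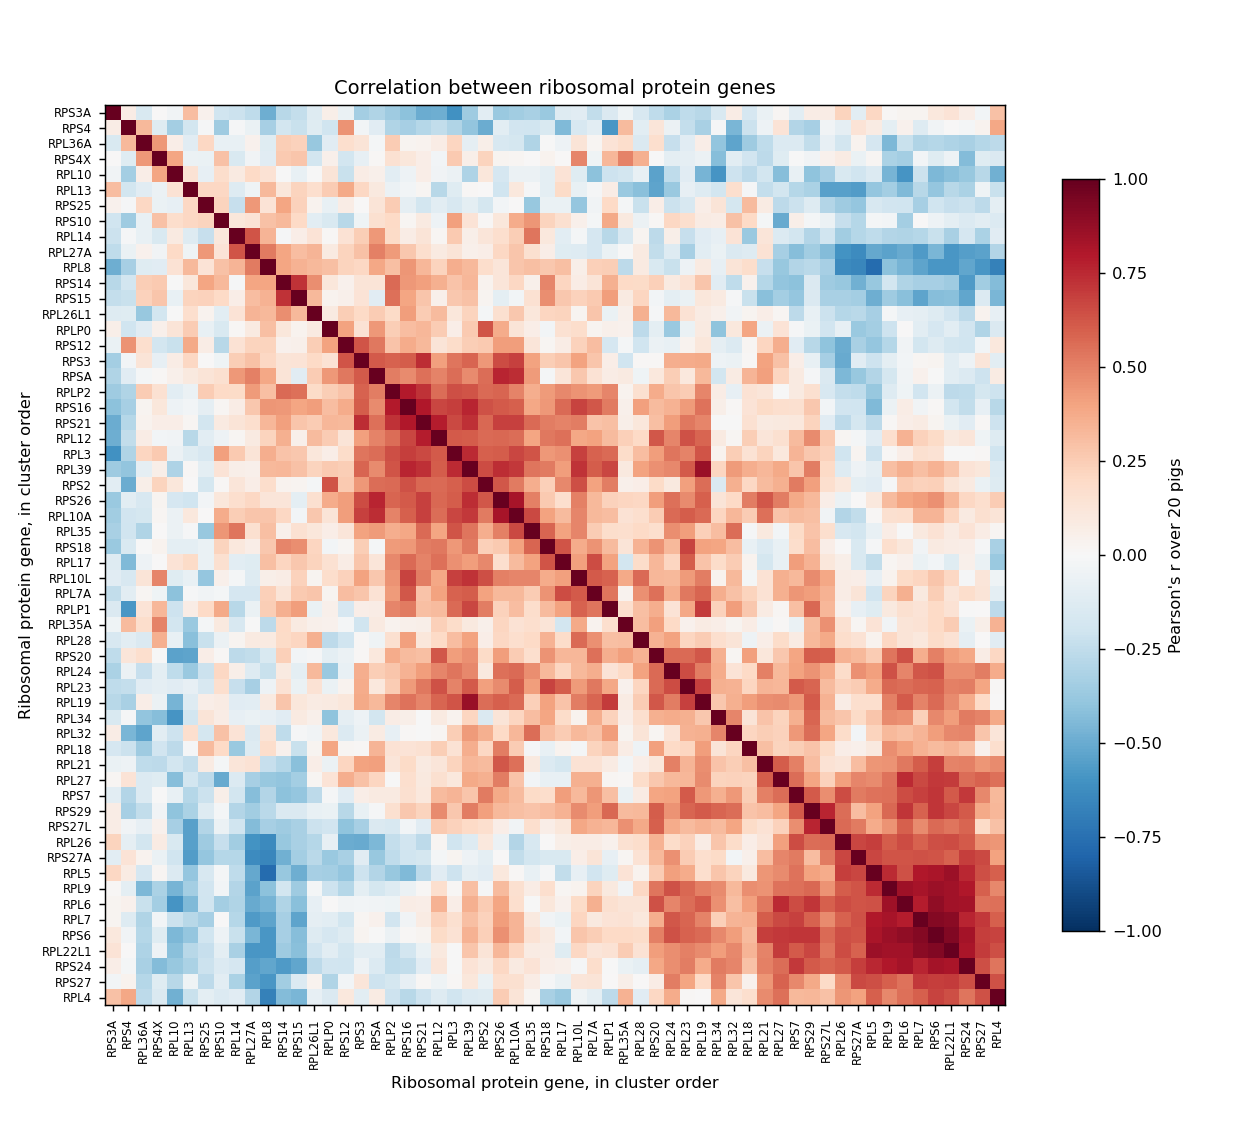
Pearson's correlation over 20 pigs (colour, from -1 in blue to 1 in red) between all pairs of the 58 ribosomal protein genes, in the order of the cluster tree on both axes. Blocks of red show the group around RPS16 and RPL3 and the group around RPS6 and RPL7, and RPL8 and RPL27A lie in blue against the second of these.

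Among the 10510 named genes outside the members, those most like the mean of all members over 20 pigs were HMGN4 (correlation 0.84), TMEM106C (0.82), SPG21 (0.82), NUP37 (0.79) and MDH1 (0.78). Against the mean of the 38 brighter members the first was EEF1B2 at 0.84, a subunit of elongation factor 1 and itself a TOP gene, followed by KCTD9 (0.80), HMGN4 (0.80), NUP37 (0.77) and PCBP2 (0.77), with 1.72% of all other named genes above 0.5.

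As lists, the further TOP genes correlated with that mean at 0.63 (Spearman 0.57) and the genes that control ribosomal protein synthesis at 0.63 (Spearman 0.64), whereas initiation factors did so at 0.22, ribosome biogenesis genes at 0.24 and mitochondrial ribosomal proteins at 0.18. Dividing cell markers stood at 0.59 (Spearman 0.70) and mature colonocyte markers, 3 of 9 measured, at -0.62 (Spearman -0.55). Without the 2 pigs farthest from the median of that mean, these 4 became 0.60, 0.56, 0.63 and -0.49. Genes within a list differed. The 9 TOP genes measured of 21 ran from -0.08 for TPT1 and -0.04 for EIF3F to 0.73 for EEF1A1 and 0.84 for EEF1B2. Those that control ribosomal protein synthesis ran from -0.36 for YY1 to 0.61 for MYC. Dividing cell markers included CCNB2 at -0.20 and TYMS at 0.09 beside PCNA at 0.46. Of the mature colonocyte markers, GUCA2A stood at -0.42 and SLC9A3 at -0.66. The share of named genes above 0.5 was counted over single genes and does not serve for the mean of a list. The other marker lists lay between -0.39 for endothelium and 0.30 for B cells. The part of cell composition in the shared variation was not tested.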

How the data were processed

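The authors deposited log2 values of 20 arrays of the Affymetrix porcine snowball design after robust multichip averaging, with probes assigned to probesets by a custom layout on Sscrofa11.1. RMA makes the distribution of values equal between arrays, so that a change of all transcripts is removed, and it compresses differences of dim probesets. The submitters' processing notes name GCOS 1.1.1. Of 47845 probesets listed, 25092 had values, of which 16361 carried 1 gene symbol, 0 several and 8731 none. Array counts do not give a depth, and the number of arrays limits the precision. Each value column could be assigned to its pig (0 unassigned).

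Models were fitted with limma (version 3.58.1) in R (version 4.3.3), two-sided, with Benjamini-Hochberg adjustment over all probesets tested. As in the study, dim probesets were dropped, with the bound at the 5% quantile of the means (23837 left), and for feed efficiency and its interaction with sex also those whose SD exceeded the 95% quantile in each group (23140 left). Sow was a fixed factor. The study also fitted slaughter batch, which is not among the labels and was not analysed here. Sow was tested with feed efficiency and sex, sex with sow and feed efficiency, and the pig number in the title with all 3. The pigs are separate animals, so p-values measure spread between animals. The fits were tested on simulated data.

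The members, gene lists and rules were chosen with earlier results of these data known. Named genes were the 6 smallest p in each direction for feed efficiency, the 8 largest F for sow, 3 in each direction and the X-linked genes for sex, 4 in each direction for the pig number, 5 at each end of level, 4 of spread and 6 of correlation, 5 genes outside the members, and the first 3 of each translation list by p for feed efficiency. Gene positions and synonyms came from the RefSeq gene table of Sscrofa11.1, in which 57 of 58 members matched 1 gene. Alternatives were other filters, covariates, blocks, variance models, centring, probeset choices and leaving out pigs or litters. Sequences were not analysed here.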

Additional observations from a re-analysis of the deposited data

Results flagged for a closer look

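Single pigs stood far from the rest of their group in 5 of 78 groups of values checked by Dixon's ratio, and chance gives about 1 in 20. RPS3A was lowest at 1.92 in a high feed efficiency male of sow 1411, against 3.63 in the next pig and a median of 4.94. RPL28 was highest at 5.40 in a high feed efficiency male of sow 1417, against 4.97 in the next pig of that group. In the litter of sow 1435, RPS10 was lowest at 7.96 in a low feed efficiency male, with a litter median of 8.19, and RPS20 was lowest at 2.55 in a high feed efficiency female, with a litter median of 2.79. In the litter of sow 1411, RPL34 was lowest at 5.04 in a high feed efficiency female, with the other 3 pigs between 5.93 and 5.97. No cause was tested.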

How the results depend on the processing

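No member passed for feed efficiency, sow or sex under any alternative run. For pig number 11 of 58 members and 4786 of 23837 probesets passed in limma with sow left out of the model, against 0 and 18. The number of all probesets that passed for sow was 30, and it became 116 with probesets under the median level removed, 57 with trend and robust variances and 3 with the pig number in the model. Leaving out 1 pig or 1 litter gave 7 to 72 for sow (72 without low feed efficiency replicate 9, 7 without the litter of sow 1435), 0 to 72 for pig number (72 without low feed efficiency replicate 3, 0 without each litter in turn), 0 to 1 for sex and 0 to 1 for feed efficiency. Members at an unadjusted p under 0.05 in these runs numbered 0 to 3 of 55 to 57 tested for feed efficiency. Of 58 members they numbered 5 to 11 for sow, 2 to 12 for pig number and 0 to 3 for sex. Over all probesets the same counts were 871 to 1943 of 23131 to 23179 tested for feed efficiency. Of 23837 probesets they were 2675 to 4503 for sow, 2960 to 4529 for pig number and 894 to 1234 for sex. Members above 0 for feed efficiency numbered 32 to 44 in these runs, lowest without the litter of sow 1417, and the median difference lay between 0.02 and 0.08. A model with each pair of littermates of 1 sex as a block kept 43 of 55 members above 0 and called 0. RPL19 turned to -0.0058 for feed efficiency when the probesets of each gene were averaged. Sex differences near 0 changed sign when single pigs or litters were left out, with values of -0.075 to 0.086 for RPL36A, -0.085 to 0.041 for RPL39 and -0.00048 to 0.19 for RPS4X. The median correlation was 0.040 over all 134 member probesets and 0.28 over the brighter members, a split chosen after seeing the data. Leaving out pigs or litters gave 0.10 to 0.16.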
